A study of Homo sapiens with 33 samples.

Results

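A set of 10 genes of the interleukin-7 receptor pathway were followed through 33 RNA sequencing libraries of human acute lymphoblastic leukaemia (ALL) cell lines. The genes were taken by symbol, from the row of each symbol's Ensembl ID, and make up 10 of the 62446 gene rows in every library: the receptor chains IL7R and IL2RG, the kinases JAK1 and JAK3, the transcription factors STAT5A and STAT5B, and the inhibitors SOCS1, SOCS2, SOCS3 and CISH. The rule itself uses no measured value, but the genes were chosen with earlier results of these data known. Nalm6 stems from a B-cell precursor ALL and CEM from a T-cell ALL, and a CRISPR/Cas9-edited derivative of Nalm6 is labelled TLE1 KO. The TLE1 gene codes for a transcriptional co-repressor, and whether the derivative is 1 clone or a pool is not given in the sources used here.

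Each of the 11 groups holds 3 libraries, described for part of the series as separate experiments. Where that is not stated, p-values measure only the spread between the libraries, which may be technical. Nalm6 was left untreated, given 0.5 µM CHIR-99021, which blocks GSK3 and so activates Wnt signalling, or given 5 µM prednisolone, a glucocorticoid. A second set of Nalm6 libraries was untreated or received 100 nM dexamethasone, a more potent glucocorticoid. The titles of Nalm6 with prednisolone name no set. By sample number this group lies with the second set, apart from the first untreated Nalm6 group used as its control. A difference between sets may therefore enter the prednisolone comparisons of Nalm6, and this was not tested. The knockout has an untreated group, one with 5 µM prednisolone and one with 100 nM dexamethasone. CEM has an untreated group, one with 2 µM CHIR-99021 and one with 10 µM prednisolone. All treatments lasted 24 h, and the medium for Nalm6 and the knockout held charcoal-stripped serum, which is depleted of steroids. The title of the series names the opposition between glucocorticoid and Wnt signalling in steroid resistance as its question. The treatment protocol pairs drugs and lines differently from the sample titles, and the titles were followed.

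Interleukin-7 is a growth and survival signal for early lymphocytes. It binds IL7R paired with IL2RG, the chain that several cytokine receptors share. JAK1 sits on IL7R and JAK3 on IL2RG. Once the chains meet, the kinases phosphorylate STAT5A and STAT5B, a pair of closely related proteins that enter the nucleus and bind DNA as dimers. CISH, SOCS1, SOCS2 and SOCS3 are induced by such signals and restrain them, SOCS1 by blocking JAK kinases directly. Activating lesions of this pathway occur in both B-lineage and T-lineage ALL.

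The bases upstream of 3 of these genes are shown because SOCS1 had the largest change of the set under glucocorticoid in Nalm6, and CISH and IL7R were called in opposite directions in Nalm6 and CEM under prednisolone. The sequences are from RefSeq on GRCh38.p14, which held upstream windows for 9 of the 10 genes (all but SOCS2), and each run is the 250 bases before the first listed start, read 5′ to 3′ on the gene's strand. CISH lies at chr3:50611775-50612024 on the minus strand, SOCS1 at chr16:11256205-11256454 on the minus strand and IL7R at chr5:35856641-35856890 on the plus strand. Capitals mark the STAT dimer motif TTCNNNGAA, which reads the same on both strands.
CISH: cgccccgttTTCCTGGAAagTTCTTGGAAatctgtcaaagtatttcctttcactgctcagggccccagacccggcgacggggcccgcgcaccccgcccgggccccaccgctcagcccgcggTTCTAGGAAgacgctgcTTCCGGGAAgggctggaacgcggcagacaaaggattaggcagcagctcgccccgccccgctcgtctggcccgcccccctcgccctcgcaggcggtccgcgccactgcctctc
SOCS1: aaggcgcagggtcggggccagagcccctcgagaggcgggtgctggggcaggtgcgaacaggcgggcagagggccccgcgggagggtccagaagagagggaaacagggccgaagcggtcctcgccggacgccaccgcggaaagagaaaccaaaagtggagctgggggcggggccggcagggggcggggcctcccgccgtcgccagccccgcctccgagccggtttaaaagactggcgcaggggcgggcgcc
IL7R: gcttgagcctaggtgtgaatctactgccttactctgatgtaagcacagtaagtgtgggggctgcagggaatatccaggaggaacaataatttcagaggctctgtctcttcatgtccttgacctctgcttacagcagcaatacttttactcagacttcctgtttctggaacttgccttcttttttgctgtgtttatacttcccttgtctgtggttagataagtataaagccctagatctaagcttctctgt
The CISH window held the motif 4 times, as TTCCTGGAA, TTCTTGGAA, TTCTAGGAA and TTCCGGGAA, starting 241, 230, 129 and 112 bases before the start. Of 35116 windows of this length, 6.57% held the motif at least once and 0.0142%, or 5 windows, held it 4 times. SOCS1 and IL7R held none. Other letters were searched on both strands: the full glucocorticoid receptor element, which is AGAACA, NNN and TGTTCT in a row (1 window of all), its left part AGAACA alone (12.4% of windows), TGTTTAC for forkhead factors (2.98%) and CTTTGAT for TCF/LEF factors (2.26%). A match of the full element is also counted under AGAACA. None of these stood in the windows of CISH, SOCS1 or IL7R. AGAACA stood 97 bases before the first STAT5A start, and TGTTTAC stood 177 bases before the IL2RG start. These matches describe the sequence only.

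Library depth was 25.3 to 61.9 counts in genes, in units of 1000000, and 36% to 49.2% of a library's reads were assigned to no gene. TLE1 transcript stood at 24.0 to 25.4 CPM (counts scaled to 1000000 gene counts per library) in the untreated knockout and 30.2 to 34.0 CPM in untreated Nalm6, so the transcript persisted and its level is no check of the edit. TSC22D3, a gene induced by glucocorticoids, rose in every treated line, from 19.6 to 23.4 CPM up to 329 to 376 CPM under prednisolone in Nalm6 and from 1.97 to 2.33 CPM up to 131 to 140 CPM in CEM. All 10 B-lineage markers exceeded a mean of 1 CPM in all 8 groups of Nalm6 and the knockout. All 10 T-lineage markers did so in CEM. There 5 of the 10 B-lineage markers also exceeded a mean of 1 CPM in every group, and PAX5, EBF1, CD22 and BLNK were among the 5 that did not. The B-lineage sum was 471 to 495 CPM in untreated CEM and 602 to 632 CPM with CHIR-99021. Myeloid markers summed to at most 15.3 CPM in any library.

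**Figure D1:**
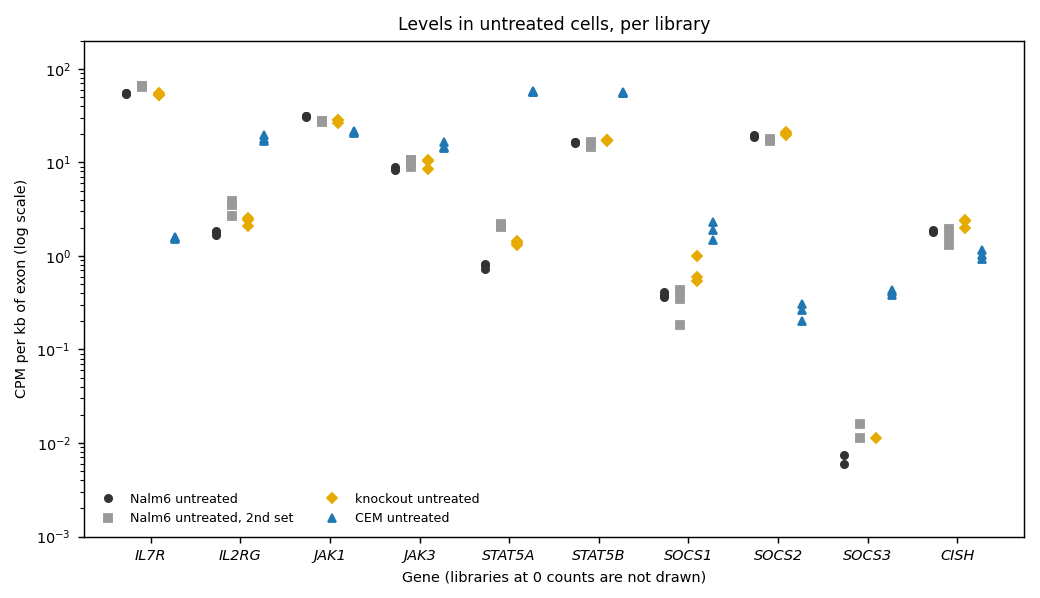
Level of each gene in untreated cells, as CPM per kilobase of exon on a log axis, with 1 symbol per library for Nalm6 (2 sets), the knockout and CEM; libraries at 0 counts are not drawn. CEM symbols lie far below the others for IL7R and SOCS2 and far above them for STAT5A.

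In untreated cells Nalm6 and CEM held these transcripts at different relative levels. Per kilobase of exon, which allows levels of different genes to be set side by side, untreated Nalm6 held IL7R at 54.6 CPM per kb, JAK1 at 30.9, SOCS2 at 19.2, STAT5B at 16.4, JAK3 at 8.55, CISH at 1.85, IL2RG at 1.77, STAT5A at 0.782 and SOCS1 at 0.389. IL7R was thus the leading transcript of the set in Nalm6 and IL2RG among the lower ones. In untreated CEM the levels were 56.9 CPM per kb for STAT5A, 55.6 for STAT5B, 21.3 for JAK1, 18.3 for IL2RG, 15.2 for JAK3, 1.90 for SOCS1, 1.56 for IL7R, 1.03 for CISH, 0.410 for SOCS3 and 0.257 for SOCS2. In CEM the STAT5 pair led and IL7R was among the lower ones.

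The difference between the lines was tested against the second untreated Nalm6 set. All 10 genes were called at an edgeR adjusted p under 0.05, 6 higher and 4 lower in CEM, in a comparison that called 77.5% of the 18018 genes tested (40.2% higher and 37.3% lower), so being called says little here. IL7R stood at 9.45, 9.63 and 9.25 CPM in CEM and at 402, 392 and 396 CPM in Nalm6, 43.1-fold lower (log2 fold change -5.43 ± 0.05 (SE), edgeR adjusted p = 1.42e-16). SOCS2, an inhibitor best known for restraining growth hormone signalling, stood at 1.78, 2.08 and 1.36 CPM in CEM against 121, 114 and 116 CPM, 68.0-fold lower (edgeR adjusted p = 2.47e-15). STAT5A ran the other way, with 334, 322 and 326 CPM in CEM against 12.2, 11.7 and 12.6 CPM, 26.2-fold higher (edgeR adjusted p = 2.64e-16). No library of one line reached into the range of the other for these 3 genes. IL2RG was 5.37-fold higher in CEM, STAT5B 3.45-fold, SOCS1 6.06-fold and JAK3 1.48-fold, while JAK1 was 1.33-fold lower and CISH 1.59-fold lower. The reference set mattered for the size of the STAT5A and IL2RG differences. Against the first untreated Nalm6 set the log2 fold change of STAT5A was 6.23 in place of 4.71 and that of IL2RG 3.41 in place of 2.42, and all 10 genes were again called in the same direction. SOCS3 had 0 to 2 counts in each of the 24 libraries of Nalm6 and the knockout, 15 of them at 0, and 40 to 66 counts in the 9 CEM libraries. At 1.13, 1.05 and 1.18 CPM in untreated CEM it was at least 13.7-fold higher than a floor of 3 counts per library in the second untreated Nalm6 set, a floor that covers counting error only. The medium of CEM is not given in the sources used here, and line and culture cannot be told apart. Nor can line and lineage, since CEM is the only T-lineage line and the B-lineage cells are Nalm6 and its derivative.

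STAT5A and STAT5B lie next to each other on chromosome 17 in opposite directions and are close copies, so reads that map equally well to both would be left out of the counts. Their balance differed by line. STAT5A made up 4.55% ± 0.31 (SD, n = 3) of the pair per kilobase in untreated Nalm6, 11.9% ± 0.86 in the second untreated set, 7.40% ± 0.26 in the untreated knockout and 50.6% ± 0.48 in untreated CEM. In CEM the share stayed near that level, at 49.3% ± 1.08 with CHIR-99021 and 48.9% ± 0.23 with prednisolone.

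**Figure D2:**
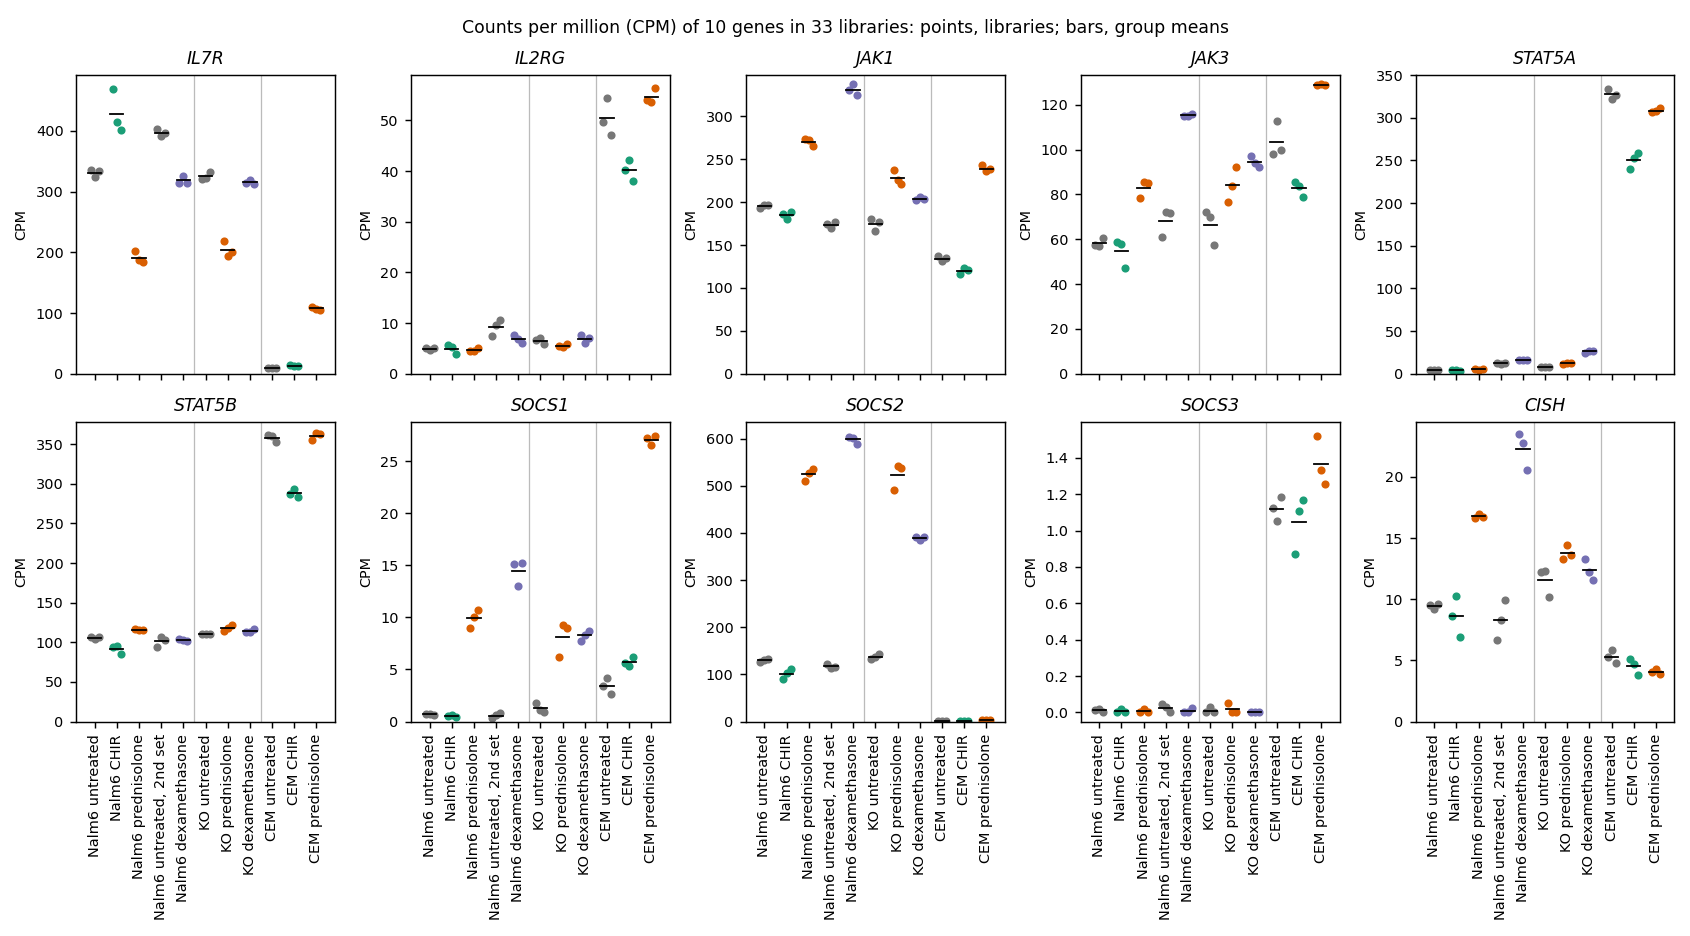
CPM of the 10 genes in every library, by group, with a bar at each group mean; grey lines separate Nalm6, the knockout and CEM, and colours mark untreated (grey), CHIR-99021 (green), prednisolone (orange) and dexamethasone (purple). SOCS1 and JAK1 are higher under glucocorticoid in all 3 lines, and IL7R is lower under prednisolone in Nalm6 and higher in CEM.

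Glucocorticoids raised SOCS1, SOCS2, JAK1 and JAK3 in Nalm6, the knockout and CEM. IL7R fell in Nalm6 under both drugs and in the knockout under prednisolone, and rose in CEM. Prednisolone in Nalm6 called 6 members higher and 1 lower of 9 tested, against 54.8% of all 18658 genes tested, 28.7% higher and 26.1% lower. Dexamethasone in Nalm6 called 6 higher and 2 lower of 9, against 60.5% (30.2% higher and 30.2% lower). Prednisolone called 5 higher and 1 lower of 9 in the knockout, against 41.7% (19.8% higher and 21.9% lower), and 5 higher and 2 lower of 10 in CEM, against 45.1% (22.3% higher and 22.8% lower). The median log2 fold change of the tested members was 0.44, 0.72, 0.30 and 0.28 in these 4 comparisons, beside 0.03, 0.02, -0.0032 and 0.02 over all genes. SOCS3 was too low to be tested outside CEM. Nalm6 with prednisolone was set against the first untreated Nalm6 set, and a difference between sets may enter its values. With prednisolone, B-lineage markers summed to 3476 to 3553 CPM in Nalm6 (3536 to 3662 CPM untreated), and in CEM the T-lineage sum was 2289 to 2299 CPM (2151 to 2168 CPM untreated). The B-lineage sum in CEM was 273 to 295 CPM with prednisolone and 471 to 495 CPM untreated, and its part in the CEM results was not tested. Fold changes come from counts scaled by TMM and can differ slightly from ratios of CPM. In bulk RNA, fewer cells with a transcript and less of it per cell cannot be told apart.

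**Figure D3:**
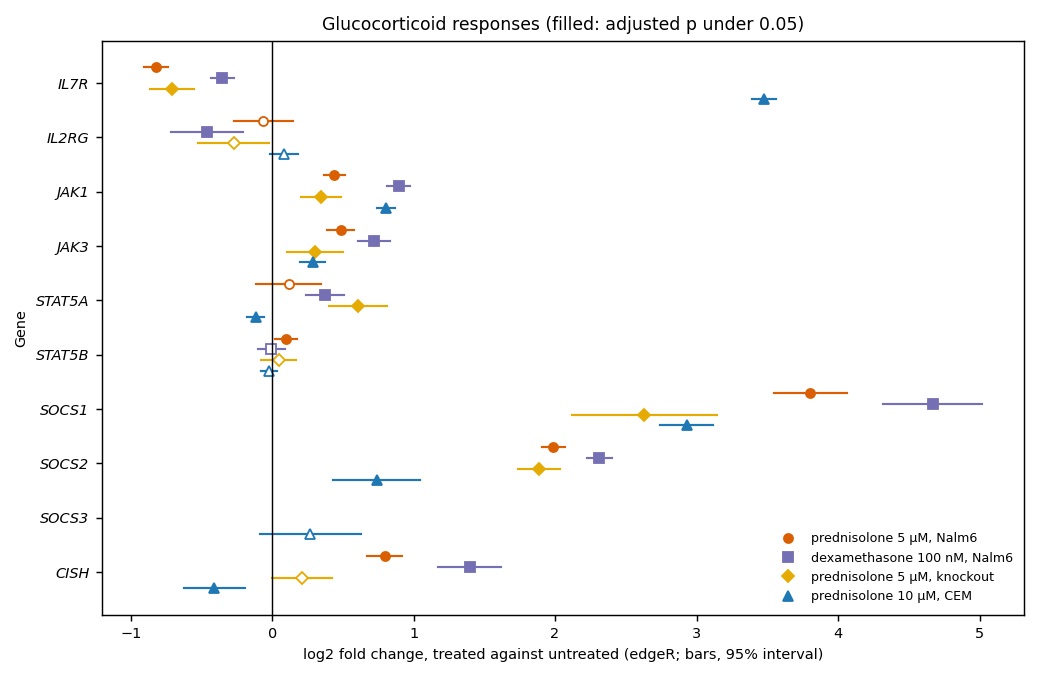
Log2 fold change of each gene under glucocorticoid against its untreated group, with 95% intervals, for Nalm6 with prednisolone or dexamethasone, the knockout with prednisolone and CEM with prednisolone; filled symbols have an edgeR adjusted p under 0.05. IL7R lies at -0.82 in Nalm6 and 3.48 in CEM under prednisolone, while SOCS1 lies above 2 in all 4 comparisons.

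IL7R (ENSG00000168685.15_1), the chain that gives the receptor its specificity, stood at 335, 324 and 334 CPM in untreated Nalm6 and 202, 187 and 185 CPM under prednisolone. The groups were apart, and IL7R fell 1.77-fold (log2 fold change -0.82 ± 0.04, edgeR adjusted p = 2.18e-11). Dexamethasone libraries read 314, 326 and 315 CPM against 402, 392 and 396 CPM in their own controls, a fall of 1.28-fold (-0.35 ± 0.04, adjusted p = 1.37e-06). In the knockout, 321, 322 and 332 CPM became 219, 194 and 200 CPM, a fall of 1.64-fold (-0.71 ± 0.07, adjusted p = 2.16e-05). CEM showed the opposite. Its 9.45, 9.63 and 9.25 CPM became 110, 107 and 105 CPM, a rise of 11.1-fold (3.48 ± 0.04, adjusted p = 5.08e-20). The prednisolone response of CEM exceeded that of Nalm6 by 4.31 ± 0.06 on the log2 scale (edgeR interaction, adjusted p = 1.17e-23), at 10 µM against 5 µM. Even so, treated CEM remained under every library of Nalm6 and the knockout, whose lowest was 185 CPM. Ordered by mean, IL7R ran from untreated CEM through CEM with CHIR-99021 and CEM with prednisolone to Nalm6 and the knockout under prednisolone, whose ranges overlapped. The untreated knockout, untreated Nalm6 and both dexamethasone groups overlapped in a chain from 315 to 331 CPM (means), and the second untreated Nalm6 set and Nalm6 with CHIR-99021 overlapped at the top.

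IL2RG (ENSG00000147168.13_1), the shared gamma chain, responded little. Under prednisolone it was at 4.55, 4.54 and 5.17 CPM in Nalm6 against 4.99, 4.61 and 5.07 CPM untreated, with a 95% interval of the log2 fold change from -0.27 to 0.15. It fell 1.38-fold under dexamethasone in Nalm6 (edgeR adjusted p = 0.00399), where 7.59, 6.89 and 6.005 CPM overlapped with the controls at 7.42, 9.69 and 10.6 CPM. The knockout gave -0.27 ± 0.11 (adjusted p = 0.0796) and CEM 0.08 ± 0.05 (adjusted p = 0.148), neither called. The CEM value was called with library totals (0.11, adjusted p = 0.0486) and without replicate 2 of untreated CEM (0.14, adjusted p = 0.00347), and the knockout value without replicate 3 of the untreated knockout (-0.35, adjusted p = 0.0357).

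Both kinases rose in all 4 comparisons. JAK1 (ENSG00000162434.13_1) stood at 193, 196 and 197 CPM in untreated Nalm6 and 274, 272 and 265 CPM under prednisolone, a rise of 1.36-fold (edgeR adjusted p = 7.35e-09). Under dexamethasone it went from 175, 170 and 177 CPM to 331, 338 and 325 CPM, a rise of 1.86-fold (adjusted p = 7.50e-11). The knockout rose 1.27-fold under prednisolone, from 181, 167 and 177 CPM to 237, 226 and 222 CPM (adjusted p = 0.00147). In CEM, 137, 131 and 135 CPM became 243, 236 and 238 CPM, a rise of 1.74-fold (adjusted p = 6.15e-13). None of these 4 pairs of groups overlapped, and the rise was 0.38 ± 0.05 larger on the log2 scale in CEM than in Nalm6 (edgeR interaction, adjusted p = 7.27e-07).

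JAK3 (ENSG00000105639.20_1), whose expression is largely limited to blood cells, rose 1.40-fold under prednisolone in Nalm6, from 57.5, 56.9 and 60.4 CPM to 78.4, 85.5 and 85.2 CPM (edgeR adjusted p = 6.60e-08). Dexamethasone took it from 61.2, 72.0 and 71.7 CPM to 115, 115 and 116 CPM, 1.65-fold (adjusted p = 2.61e-08). In CEM it rose 1.22-fold, from 98.1, 113 and 100 CPM to 129 CPM in each library (adjusted p = 3.20e-05). The groups were apart in each case. The knockout rose 1.23-fold (0.30 ± 0.09, adjusted p = 0.0200), a call lost without its prednisolone replicate 2 (0.32, adjusted p = 0.0511) or 3 (0.24, adjusted p = 0.0914). The difference between CEM and Nalm6 was -0.19 ± 0.07 (edgeR interaction, adjusted p = 0.0421). That call was lost with DESeq2, with counts taken without strand and without replicate 1 (-0.20), 2 (-0.19) or 3 (-0.18) of CEM with prednisolone, replicate 2 of untreated CEM (-0.12), replicate 2 (-0.18) or 3 (-0.15) of Nalm6 with prednisolone, or replicate 1 (-0.18) or 2 (-0.16) of untreated Nalm6.

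STAT5B (ENSG00000173757.10_1) hardly moved under glucocorticoid. Nalm6 read 107, 104 and 107 CPM untreated and 116, 116 and 115 CPM under prednisolone (0.10 ± 0.04, edgeR adjusted p = 0.0283). This call was lost with RLE size factors (0.08), DESeq2 (0.08) and no filter (0.07), and without prednisolone replicate 1 (0.08) or 3 (0.07) or untreated replicate 2 (0.08) or 3 (0.11). The 95% intervals of the log2 fold change were -0.10 to 0.09 under dexamethasone in Nalm6, -0.08 to 0.17 in the knockout and -0.08 to 0.04 in CEM, none of them called.

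STAT5A (ENSG00000126561.18_1) rose in 2 of the 4 comparisons and fell in CEM. In the knockout it rose 1.52-fold under prednisolone, from 8.24, 7.58 and 7.90 CPM to 11.7, 12.5 and 12.98 CPM (edgeR adjusted p = 4.01e-04). Dexamethasone in Nalm6 took it from 12.2, 11.7 and 12.6 CPM to 16.2, 16.2 and 16.1 CPM, 1.30-fold (adjusted p = 1.01e-04). Both pairs of groups were apart. Prednisolone in Nalm6 gave 5.53, 4.33 and 5.19 CPM against 4.65, 4.67 and 4.18 CPM, ranges that overlapped (0.12 ± 0.11, adjusted p = 0.388). In CEM it fell 1.08-fold, from 334, 322 and 326 CPM to 306, 308 and 311 CPM (adjusted p = 0.00228). The prednisolone response of the knockout minus that of Nalm6 was 0.51 ± 0.14 (edgeR interaction, adjusted p = 0.0643), not called. DESeq2 (adjusted p = 0.0283), no filter (adjusted p = 0.0428) and the fit without replicate 3 of the untreated knockout (adjusted p = 0.0446) called it.

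SOCS1 and SOCS2 had the largest log2 fold changes of the set in Nalm6 under either glucocorticoid and in the knockout under prednisolone. SOCS1 (ENSG00000185338.7_1), which blocks JAK kinases, was near the bottom in untreated Nalm6 at 0.743, 0.694 and 0.662 CPM and reached 9.03, 10.1 and 10.7 CPM under prednisolone, 14.0-fold higher (3.80 ± 0.12, edgeR adjusted p = 6.95e-14). Dexamethasone took it from 0.330, 0.615 and 0.778 CPM to 15.1, 13.02 and 15.3 CPM, 25.4-fold (4.67 ± 0.16, adjusted p = 1.08e-11). In the knockout, 1.81, 1.07 and 0.963 CPM became 6.15, 9.30 and 8.97 CPM, 6.20-fold (2.63 ± 0.23, adjusted p = 9.77e-06). CEM started higher, at 3.40, 4.15 and 2.69 CPM, and reached the top of all groups at 27.3, 26.5 and 27.4 CPM, 7.63-fold (2.93 ± 0.09, adjusted p = 2.40e-14). Treated and untreated libraries were apart in each of these comparisons. The response of CEM minus that of Nalm6 was -0.86 ± 0.18 on the log2 scale (edgeR interaction, adjusted p = 8.47e-04).

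SOCS2 (ENSG00000120833.14_1) was the most abundant inhibitor of the 4 in Nalm6 and the knockout. It rose from 127, 130 and 133 CPM to 511, 527 and 535 CPM under prednisolone in Nalm6, 3.96-fold (1.99 ± 0.04, edgeR adjusted p = 1.10e-16). Dexamethasone raised it 4.97-fold, from 121, 114 and 116 CPM to 605, 602 and 589 CPM (adjusted p = 1.06e-14). The knockout overlapped the prednisolone range of Nalm6, with 133, 137 and 142 CPM untreated and 490, 541 and 538 CPM treated, 3.70-fold (adjusted p = 2.12e-08). Its response minus that of Nalm6 had a 95% interval from -0.24 to 0.08 on the log2 scale. In CEM, where the gene had 46 to 127 counts per library, 1.78, 2.08 and 1.36 CPM became 2.79, 3.19 and 3.11 CPM, 1.67-fold (0.74 ± 0.15, adjusted p = 4.39e-04). The CEM rise minus that of Nalm6 was -1.24 ± 0.13 (edgeR interaction, adjusted p = 9.79e-08).

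CISH (ENSG00000114737.16_1), a classic STAT5-induced inhibitor and the gene with 4 STAT motifs in the window shown above, responded to prednisolone in Nalm6 and differed from it in both other lines. Nalm6 rose 1.73-fold under prednisolone, from 9.56, 9.20 and 9.65 CPM to 16.7, 16.9 and 16.7 CPM (0.79 ± 0.06, edgeR adjusted p = 3.66e-09). Dexamethasone raised it 2.63-fold, from 6.67, 8.34 and 9.97 CPM to 23.5, 22.7 and 20.5 CPM (1.40 ± 0.10, adjusted p = 3.18e-08). The knockout went from 12.2, 12.3 and 10.2 CPM to 13.3, 14.4 and 13.6 CPM, apart but not called (0.21 ± 0.10, adjusted p = 0.104). CEM went down 1.33-fold, from 5.24, 5.86 and 4.76 CPM to 4.05, 4.32 and 3.87 CPM (-0.41 ± 0.10, adjusted p = 0.00315). Direct tests of the prednisolone responses gave -0.56 ± 0.11 for the knockout minus Nalm6 (edgeR interaction, adjusted p = 0.00580) and -1.19 ± 0.11 for CEM minus Nalm6 (adjusted p = 9.05e-09).

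**Figure D4:**
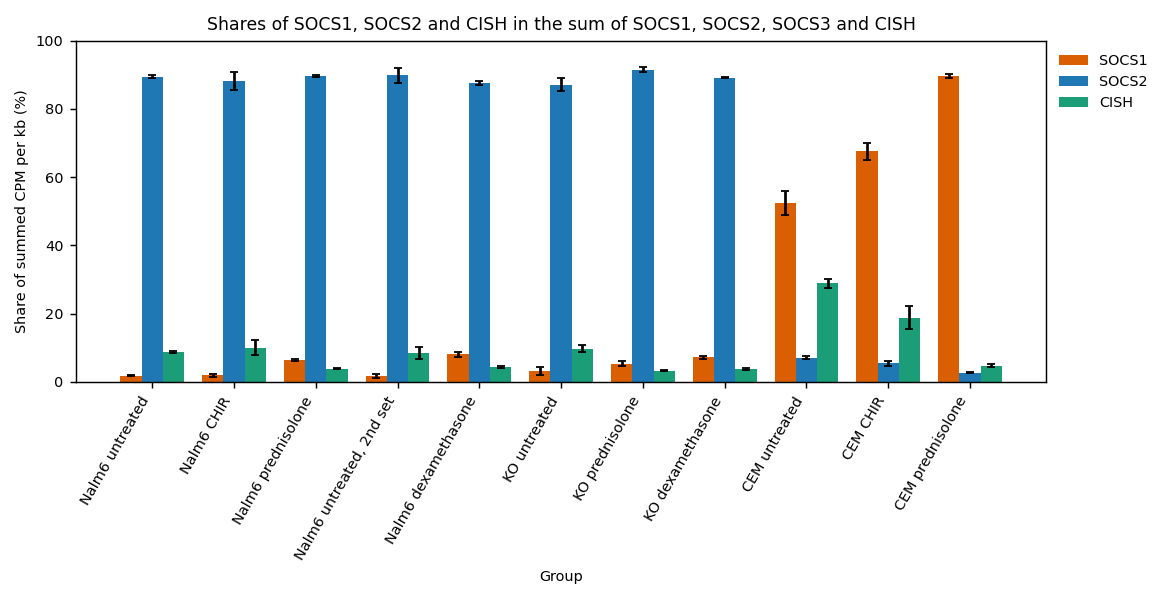
Shares of SOCS1, SOCS2 and CISH in the summed CPM per kb of the 4 inhibitors by group (bars, mean; error bars, SD of 3 libraries). SOCS2 holds 87.2% to 91.5% in every group of Nalm6 and the knockout, and SOCS1 goes from 52.4% to 89.6% in CEM under prednisolone.

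Summed over the 4 inhibitors, the level per kilobase went from 21.4 ± 0.41 CPM per kb (SD, n = 3) to 86.2 ± 2.31 under prednisolone in Nalm6, from 19.3 ± 0.37 to 100.7 ± 1.44 under dexamethasone, from 23.3 ± 0.25 to 84.4 ± 5.24 in the knockout and from 3.60 ± 0.54 to 16.8 ± 0.21 in CEM. The make-up of that sum differed by line. SOCS2 held 87.2% to 91.5% (group means) of it in Nalm6 and the knockout under all treatments. In CEM, SOCS1 held 52.4% ± 3.38 untreated and 89.6% ± 0.49 under prednisolone, while CISH went from 28.9% ± 1.42 to 4.75% ± 0.32. SOCS3 (ENSG00000184557.4_1) did not pass the test in CEM under prednisolone, at 1.52, 1.33 and 1.25 CPM against 1.13, 1.05 and 1.18 CPM (0.27 ± 0.17, edgeR adjusted p = 0.211).

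CHIR-99021 raised IL7R in both lines and lowered STAT5B in both. The STAT5B call in Nalm6 was lost with the replicate block and in several fits that left out a library. In Nalm6 at 0.5 µM it called 1 member higher and 2 lower of 9 tested, against 7.88% of all genes (3.16% higher and 4.72% lower). In CEM at 2 µM it called 2 higher and 5 lower of 10, against 10.8% (5.41% higher and 5.43% lower). The median log2 fold change of the tested members was -0.14 in Nalm6 and -0.17 in CEM, beside -0.0070 and -0.0047 over all genes. The doses differ, and whether the responses differed between the lines was not tested. In Nalm6 with CHIR-99021, replicate 3 differed from replicates 1 and 2 more than these differed from each other.

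**Figure D5:**
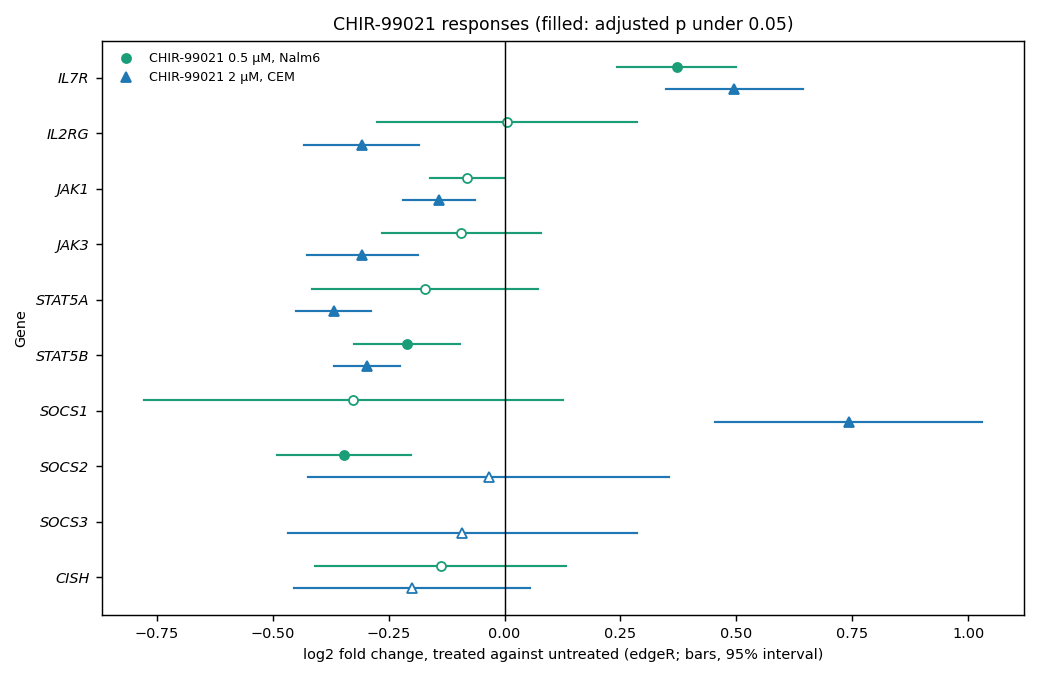
Log2 fold change of each gene under CHIR-99021 against untreated cells, with 95% intervals, in Nalm6 (0.5 µM, circles) and CEM (2 µM, triangles); filled symbols have an edgeR adjusted p under 0.05. IL7R lies above 0 in both lines, and IL2RG, the kinases and the STAT5 pair lie below 0 in CEM.

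IL7R under CHIR-99021 was 470, 414 and 401 CPM in Nalm6 against 335, 324 and 334 CPM, a rise of 1.29-fold (0.37 ± 0.06, edgeR adjusted p = 0.00406), and 13.9, 12.5 and 13.1 CPM in CEM against 9.45, 9.63 and 9.25 CPM, 1.41-fold (0.50 ± 0.07, adjusted p = 7.63e-04). The groups were apart in both lines. SOCS1 rose 1.67-fold in CEM, from 3.40, 4.15 and 2.69 CPM to 5.64, 5.34 and 6.20 CPM (edgeR adjusted p = 0.00420). In Nalm6 its 0.562, 0.652 and 0.464 CPM lay below the 0.662 to 0.743 CPM of the controls without passing the test (-0.33 ± 0.20, adjusted p = 0.380).

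The STAT5 pair, the gamma chain and JAK3 were lower in CEM with CHIR-99021. STAT5A fell from 334, 322 and 326 CPM to 240, 252 and 258 CPM, 1.29-fold (edgeR adjusted p = 8.57e-05), and STAT5B from 362, 360 and 353 CPM to 287, 293 and 283 CPM, 1.23-fold (adjusted p = 1.71e-04). IL2RG fell 1.24-fold to 40.3, 42.3 and 38.1 CPM (adjusted p = 0.00502) and JAK3 1.24-fold to 85.4, 83.6 and 79.0 CPM (adjusted p = 0.00408). All 4 sets of treated libraries lay below their controls. JAK1 fell 1.10-fold (-0.14 ± 0.04, adjusted p = 0.0251), a call lost without CHIR-99021 replicate 1 (-0.12) or 2 (-0.15) or untreated replicate 1 (-0.13) or 3 (-0.14). SOCS2, SOCS3 and CISH did not pass the test in CEM.

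In Nalm6, CHIR-99021 lowered SOCS2 from 127, 130 and 133 CPM to 91.3, 102 and 112 CPM, 1.27-fold (-0.35 ± 0.07, edgeR adjusted p = 0.0106), and STAT5B from 107, 104 and 107 CPM to 93.9, 95.6 and 84.7 CPM, 1.16-fold (-0.21 ± 0.05, adjusted p = 0.0334). The groups were apart for both. The SOCS2 call was lost without untreated replicate 2 (-0.35, adjusted p = 0.0523) or 3 (-0.33, adjusted p = 0.0723). The STAT5B call was lost without CHIR-99021 replicate 1 (-0.22) or untreated replicate 1 (-0.20), 2 (-0.23) or 3 (-0.20).

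The untreated knockout was compared with the first untreated Nalm6 set, and 4 members were called higher and 0 lower of 9 tested, against 27.1% of all genes (15.3% higher and 11.8% lower). STAT5A was 1.79-fold higher (8.24, 7.58 and 7.90 CPM against 4.65, 4.67 and 4.18 CPM, edgeR adjusted p = 1.25e-04). IL2RG was 1.35-fold higher (6.67, 7.10 and 5.78 CPM against 4.99, 4.61 and 5.07 CPM, adjusted p = 0.0112). These directions depended on the reference. Against the second untreated Nalm6 set, STAT5A in the knockout was lower (-0.65, adjusted p = 3.57e-04) and so was IL2RG (-0.52, adjusted p = 0.0170), while IL7R (-0.31, adjusted p = 0.00148) and SOCS2 (0.20, adjusted p = 0.0194) were called only then. IL2RG was not called without untreated Nalm6 replicate 2 (0.39, adjusted p = 0.0549).

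The other called members were inhibitors. SOCS1 was higher in the untreated knockout by 0.88 ± 0.24 on the log2 scale (edgeR adjusted p = 0.0252), with replicate 1 at 1.81 CPM above the other libraries at 1.07 and 0.963 CPM. Without that library the value was 0.57 (adjusted p = 0.0738), and the call was also lost without untreated Nalm6 replicate 1 (0.93), 2 (0.87) or 3 (0.84). CISH was higher by 0.31 ± 0.09 (adjusted p = 0.0243), a call lost without knockout replicate 1 (0.29) or 2 (0.27) or untreated Nalm6 replicate 1 (0.32), 2 (0.29) or 3 (0.33). JAK1 (-0.14) and JAK3 (0.21) were not called by edgeR, but their calls depended on the settings. JAK1 was called lower with DESeq2 (adjusted p = 0.0422), with at least 10 counts in each library (edgeR adjusted p = 0.0444), with library totals (adjusted p = 0.0356) and without knockout replicate 3 (-0.15, adjusted p = 0.0146). JAK3 was called higher with no filter (edgeR adjusted p = 0.0116) and without knockout replicate 3 (0.30, adjusted p = 4.77e-04).

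The spread between the 2 untreated Nalm6 sets is the yardstick for such comparisons across sets. The second set against the first called 4 members higher and 1 lower of 9, against 50.2% of all genes (25.8% higher and 24.4% lower). STAT5A was 2.82-fold higher in the second set (edgeR adjusted p = 2.60e-08), IL2RG 1.95-fold (adjusted p = 2.87e-05), IL7R 1.25-fold (adjusted p = 1.51e-05) and JAK3 1.22-fold (adjusted p = 0.00116). JAK1 was lower by -0.11 ± 0.03 (adjusted p = 0.0205). That call was lost with counts taken without strand (-0.056, adjusted p = 0.211), without replicate 2 of the second set (-0.08) and without replicate 2 (-0.11) or 3 (-0.10) of the first. SOCS2 was called lower in the second set with at least 10 counts in each library (-0.10), with library totals (-0.14) and without replicate 1 of the second set (-0.11), and CISH without its replicate 3 (-0.29). B-lineage markers summed to 3536 to 3662 CPM in the first set and 3885 to 3962 CPM in the second, T-lineage markers to 35.4 to 37.9 and 37.9 to 41.1 CPM, and myeloid markers to 7.37 to 9.35 and 14.2 to 15.3 CPM. Their part in these differences was not tested. CD3E, a defining T-cell gene, was at 0 CPM in the first set, 0.0587 CPM in the second and 184 CPM in untreated CEM.

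Prednisolone in the knockout differed from prednisolone in Nalm6 for 0 members higher and 2 lower of 9, against 3.48% of all genes (1.10% higher and 2.38% lower). These were SOCS1 (-1.15 ± 0.29, edgeR interaction, adjusted p = 0.0384) and CISH, given above. The SOCS1 value was -0.84 (adjusted p = 0.162) without untreated knockout replicate 1, the library with the highest SOCS1 of its group. Its call was also lost without replicate 2 of the untreated knockout (-1.25), without replicate 2 (-1.16) or 3 (-1.06) of Nalm6 with prednisolone, and without untreated Nalm6 replicate 1 (-1.19), 2 (-1.14) or 3 (-1.10). IL7R, JAK1, JAK3, SOCS2 and STAT5B were not called, with 95% intervals of the difference from -0.05 to 0.32 for IL7R and from -0.23 to 0.08 for JAK1. CEM minus Nalm6 called 2 members higher and 4 lower of 10, against 26.9% (14.7% higher and 12.2% lower).

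The titles name untreated libraries of the dexamethasone experiment for Nalm6 only, so the knockout with dexamethasone was set against the untreated knockout, and a difference between sets cannot be told apart from the drug. Against the untreated knockout, 5 members were called higher and 0 lower of 9, against 52.3% of all genes (26% higher and 26.3% lower). They were SOCS1 (7.76, 8.30 and 8.74 CPM, 6.58-fold, edgeR adjusted p = 9.24e-07), SOCS2 (390, 386 and 391 CPM, 2.86-fold, adjusted p = 1.46e-08), STAT5A (24.8, 27.1 and 26.6 CPM, 3.34-fold, adjusted p = 6.95e-08), JAK3 (1.44-fold) and JAK1 (1.18-fold). IL7R (313, 320 and 313 CPM) and CISH (13.3, 12.3 and 11.5 CPM) were not called, with intervals of the log2 fold change from -0.14 to 0.09 and from -0.10 to 0.32.

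Under dexamethasone the knockout stood below Nalm6 for 5 members and above it for 2 of 9, against 56.6% of all genes (28.5% higher and 28.1% lower). CISH was 1.79-fold lower (edgeR adjusted p = 4.32e-10), SOCS1 1.73-fold (adjusted p = 2.94e-08), JAK1 1.61-fold (adjusted p = 2.74e-14), SOCS2 1.53-fold (adjusted p = 1.31e-13) and JAK3 1.21-fold (adjusted p = 2.05e-07). STAT5A was 1.63-fold higher (adjusted p = 2.77e-10) and STAT5B 1.12-fold (adjusted p = 2.89e-04). IL7R did not separate the lines here, at 313 to 320 CPM in the knockout and 314 to 326 CPM in Nalm6. TSC22D3 was at 150 to 165 CPM in these knockout libraries and 468 to 481 CPM in Nalm6.

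Across the 11 group means, the orders of the inhibitors differed. SOCS1 was lowest in Nalm6 with CHIR-99021 and both untreated Nalm6 sets, which overlapped, then rose through the untreated knockout, untreated CEM, and CEM with CHIR-99021, whose range overlapped that of the knockout with prednisolone. The latter also overlapped the knockout with dexamethasone and Nalm6 with prednisolone. Nalm6 with dexamethasone and CEM with prednisolone followed, each apart from the groups below. SOCS2 put the 3 CEM groups lowest, and its top ran from the knockout with dexamethasone to the overlapping prednisolone groups of the knockout and Nalm6 and then Nalm6 with dexamethasone. For CISH the 3 CEM groups overlapped at the bottom in a chain, and the 3 highest groups, each apart from the next, were the knockout with prednisolone, Nalm6 with prednisolone and Nalm6 with dexamethasone.

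Genes whose mean log2 CPM most resembled each pattern over the 11 groups, among 11852 genes, were TMSB10 (Pearson r = 0.964), CPOX (0.963) and ARRDC2 (0.960) for IL7R, and DUSP10 (0.985), KLF13 (0.979) and WBP1L (0.977) for SOCS1. For SOCS2 they were LINC02137 (0.999), ZFYVE27 (0.998) and OGFRL1 (0.997), and for CISH SLC44A1 (0.976), RHOB (0.971) and LILRA2 (0.971). These values are descriptions over groups of which 8 are Nalm6 or its derivative, so a difference between the lines alone can give a high r.

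Other parts of the pathway were followed in a list of 31 receptors, kinases, STATs and inhibitors. The shares of all genes called, for this list and those that follow, were 54.8% under prednisolone and 60.5% under dexamethasone in Nalm6, and 41.7% in the knockout and 45.1% in CEM under prednisolone. Of 25 tested, 10 rose and 10 fell under prednisolone in Nalm6, with a median log2 fold change of 0.06 beside 0.03 over all genes, and 9 rose and 10 fell under dexamethasone (median -0.06 beside 0.02). In the knockout, 5 rose and 5 fell of 23 (median -0.04 beside -0.0032), and in CEM 10 rose and 9 fell of 27 (median 0.0013 beside 0.02). JAK2, a related kinase of cytokine receptors, rose by 0.58, 0.60, 0.60 and 0.55 on the log2 scale in these 4 comparisons. STAT2, a partner in interferon signalling, rose by 0.82, 0.93, 0.89 and 0.46. IL15RA, a chain of the interleukin-15 receptor, which also uses IL2RG, fell in all 4 (-1.16, -1.64, -0.80 and -0.55). IL21R, another partner of IL2RG, fell in Nalm6 under prednisolone (-0.66) and dexamethasone (-1.03) and in the knockout (-0.96). PTPN6, a phosphatase that restrains cytokine receptors, fell from 141 to 72.2 CPM (means) under prednisolone in Nalm6 (-0.99 ± 0.05, edgeR adjusted p = 2.11e-11). The ligand gene IL7 had 0 CPM in untreated Nalm6 and the untreated knockout and 0.00731 CPM in untreated CEM.

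An inhibitor outside the 10 set the knockout apart. SOCS6, a relative of the SOCS genes above, was at 0.209 to 0.289 CPM in the untreated knockout and 8.06 to 8.99 CPM in untreated Nalm6 (-5.13 ± 0.16, edgeR adjusted p = 9.41e-08). It stayed at 0.0989 to 0.478 CPM in the treated knockout groups, and at 7.66 to 9.81 CPM in treated Nalm6 groups. CCND2, a cyclin, was also lower in the untreated knockout (0.329 against 3.80 CPM, -3.47 ± 0.20, adjusted p = 4.47e-06). Of 24 pathway genes tested there, 5 were higher and 4 lower, and of 12 STAT5 target genes 1 was higher and 2 lower, against 15.3% higher and 11.8% lower of all genes. IL21R was higher (1.11) against the first untreated Nalm6 set and lower (-0.21) against the second.

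Genes known as STAT5 targets were called in both directions under the glucocorticoids. Of 12 tested under a background of 54.8%, 60.5%, 41.7% and 45.1% of all genes called, 4 rose and 7 fell under prednisolone in Nalm6 (median -0.27 beside 0.03 over all genes), 5 rose and 6 fell under dexamethasone (median -0.24 beside 0.02), 3 rose and 6 fell in the knockout (median -0.31 beside -0.0032), and 3 rose and 4 fell of 11 in CEM (median -0.02 beside 0.02). BCL6, a repressor that STAT5 is known to hold down, fell from 15.0 to 2.92 CPM under prednisolone in Nalm6 (-2.36 ± 0.11, edgeR adjusted p = 7.15e-12) and by -2.70 under dexamethasone and -2.10 in the knockout, but rose in CEM (0.43 ± 0.06, adjusted p = 1.01e-05). BCL2, a survival gene, fell in Nalm6 (-1.37 under prednisolone, -1.96 under dexamethasone) and the knockout (-0.98). MYC fell in all 4 comparisons (-1.005, -1.08, -0.75 and -0.81), while GFI1, a repressor, rose in Nalm6 (1.44 and 1.87) and the knockout (1.196). With CHIR-99021 in Nalm6, 2 of the 12 rose and 4 fell against 7.88% of all genes called, BCL6 upward (1.15 ± 0.12, adjusted p = 5.31e-04) and CCND3 (-0.40) and PIM1 (-0.45) downward. In CEM 1 of 11 rose and 3 fell against 10.8%, with MYC at -0.55 and CCND3 at -0.31.

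Among 12 transcription factors known to bear on IL7R, beside the same 54.8%, 60.5%, 41.7% and 45.1% of all genes, 3 rose and 6 fell of 11 under prednisolone in Nalm6 (median -0.20 beside 0.03), 4 rose and 5 fell of 12 under dexamethasone (median -0.05 beside 0.02), 3 rose and 4 fell of 11 in the knockout (median 0.03 beside -0.0032), and 5 rose and 2 fell of 9 in CEM (median 0.13 beside 0.02). NR3C1, the glucocorticoid receptor itself, rose by 1.18, 1.26, 1.26 and 1.54 in these comparisons. RUNX1, a factor of early lymphocytes, fell by 1.28 on the log2 scale under prednisolone in Nalm6, by 1.55 under dexamethasone, by 1.08 in the knockout and by 0.25 in CEM. FOXO1, an activator of IL7R, rose in Nalm6 (0.64 and 0.49) and the knockout (0.37). GFI1, the repressor named above and also in this list, rose in Nalm6 (1.44 and 1.87) and the knockout (1.196). In CEM the 2 called lower were RUNX1 and GABPA, and the 3 named of the 5 called higher were NR3C1, IKZF1 and ETS1. FOXO1 and GFI1 were not among the genes named there. PAX5 fell in Nalm6 (-0.56 under prednisolone and -0.68 under dexamethasone) and in the knockout (-0.56). Their part in the IL7R changes was not tested. With CHIR-99021 in Nalm6, 0 rose and 4 fell of 11 against 7.88% of all genes, FOXO1 among them (-0.38), and in CEM 0 of 9 were called in either direction against 10.8%. ETS1 and IKZF1 rose in CEM under prednisolone (0.20 and 0.41). ETS1 fell under dexamethasone in Nalm6 (-0.40) and under prednisolone in the knockout (-0.51).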

How the data were processed

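Gene counts were deposited for 33 libraries by the authors in the layout of STAR gene counts: 62446 gene rows, and 4 rows of reads outside genes that stayed out of all totals. The submitters' processing notes name hg19, Bowtie2 and DESeq2 with no role, and no other step is given in the sources used here. The fourth column (counts on 1 strand) held 12.3 to 15.3 times the total of the third and was used. Levels are counts scaled to 1000000 per library (CPM). Levels per kilobase use the summed exon length of GENCODE release 29. Symbols matched 40678 IDs.

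Each of 13 comparisons was fitted on its own groups, over all genes, with edgeR 4.0.16 in R 4.3.3: filterByExpr, TMM, quasi-likelihood F test, Benjamini-Hochberg adjustment, with calls at adjusted p under 0.05. Differences between lines in the prednisolone response are interaction contrasts, and differences between lines in level are contrasts of 2 groups. A floor is 3 counts per library. The code was checked on simulated counts. Replicates differed by more than sampling noise (chi-square per degree of freedom 1.85 to 43.7) and none were merged. The largest values were for replicate 3 of Nalm6 with CHIR-99021 against replicates 1 (42.1) and 2 (43.7), with 5.77 between replicates 1 and 2. The untreated knockout had 17.7, 29.3 and 33.

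Alternatives were RLE size factors, DESeq2 1.42.0, the fit with no filter, a filter of 10 counts in each library and the replicate number as a block. Further ones were counts without strand, each library left out in turn and, chosen after seeing the data, library totals alone. The other untreated Nalm6 set was tried only where CEM or the knockout was compared with untreated Nalm6. The 10 genes and all lists were chosen with earlier results of these data known. Named genes are the 10 in every comparison, TLE1, TSC22D3, up to 3 called genes per direction with the largest change from each list, and the 3 genes most alike to IL7R, SOCS1, SOCS2 and CISH. SOCS6 ranges in other groups, the ligand gene IL7 and CD3E were added after their values were seen.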

Additional observations from a re-analysis of the deposited data

Results flagged for a closer look

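Prednisolone responses were compared between lines by an interaction test, which 2 of 9 genes passed for the knockout minus Nalm6 (3.48% of all genes) and 6 of 10 for CEM minus Nalm6 (26.9% of all genes). The knockout response minus that of Nalm6, both at 5 µM, was -1.15 on the log2 scale for SOCS1 and -0.56 for CISH. SOCS1 rose 14.0-fold in Nalm6 and 6.20-fold in the knockout, and its difference rests in part on 1 untreated knockout library (-0.84 without it). That call was lost in 7 of the fits that left out a library and with the replicate block. The CISH difference was called under every alternative run, none of which used the second untreated Nalm6 set. A difference between sets may enter both values through Nalm6 with prednisolone and its untreated group, which was not tested.

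The CEM response at 10 µM minus that of Nalm6 at 5 µM was 4.31 for IL7R, which fell in Nalm6 and rose in CEM, and 0.38 for JAK1, which rose in both. It was -0.86 for SOCS1 and -1.24 for SOCS2, which also rose in both lines. CISH gave -1.19, with a rise in Nalm6 and a fall in CEM. JAK3 gave -0.19 and rose in both, a call lost with DESeq2, without strand and in 8 of the fits that left out a library. Line and dose differ together in these comparisons and cannot be told apart. A difference between sets may also enter through Nalm6 with prednisolone and its untreated group, which was not tested.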

How the results depend on the processing

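Of 1703 values of the 10 genes recomputed under alternatives, 1595 kept their direction and side of the threshold, 54 lost a call, 20 gained one and 34 changed sign. Of 77 called results, 65 kept call and direction under every alternative. The 2 called results that changed sign did so in the untreated knockout against the second untreated Nalm6 set, IL2RG to -0.52 and STAT5A to -0.65. With that set JAK3 went to -0.067, IL21R to -0.21 and PIM1 to -0.10. Sign changes among uncalled values were IL2RG with CHIR-99021 in Nalm6 at -0.0017 (no filter), STAT5B under dexamethasone in Nalm6 at 0.013 (at least 10 counts) and 0.031 (library totals), STAT5B under prednisolone in CEM at 0.010 (library totals), and, without strand, IL7R in the untreated knockout at 0.016, IL7R in the knockout with dexamethasone at 0.0067 and STAT5B between the untreated Nalm6 sets at 0.051. The cause was not tested.

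Leaving out each library in turn crossed 0 for uncalled values. With CHIR-99021 in Nalm6, IL2RG ranged from -0.087 to 0.16, JAK3 from -0.15 to 0.0094 and CISH from -0.30 to 0.017. STAT5B under dexamethasone in Nalm6 ranged from -0.068 to 0.0074, and IL7R in the untreated knockout from -0.026 to 0.018. Knockout against Nalm6 under dexamethasone gave -0.016 to 0.016 for IL7R and -0.041 to 0.11 for IL2RG. With CHIR-99021 in CEM, SOCS2 ranged from -0.16 to 0.12 and SOCS3 from -0.17 to 0.040. Between the untreated Nalm6 sets STAT5B ranged from -0.034 to 0.044, SOCS1 from -0.56 to 0.054 and CISH from -0.29 to 0.010.

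Leaving out libraries moved the number of called members from 3 to between 1 and 3 for CHIR-99021 in Nalm6, from 4 to between 1 and 6 for the untreated knockout, and from 2 to between 1 and 3 for prednisolone in the knockout minus Nalm6. Over all genes, CHIR-99021 in Nalm6 called 1425, with 2320 without a filter, 925 with a replicate block and 409 to 2708 on leaving out a library. The 2708 were called without CHIR-99021 replicate 3, a fit that called 3 members. The untreated knockout called 4655 (2804 to 6732), CHIR-99021 in CEM 1865 (1001 to 1948), and prednisolone in the knockout minus Nalm6 624 (361 to 1852, and 981 without a filter). In none of the 11 comparisons of 2 groups did all 3 pairs of same-numbered libraries have deviations correlated over 0.1, so the numbers were not taken to pair them, though all 3 were above 0 for prednisolone in Nalm6 (0.076 to 0.18) and between the untreated Nalm6 sets (0.06 to 0.3). With the replicate number as a block, 4 of the 77 calls were lost and 0 gained: STAT5B with CHIR-99021 in Nalm6 (-0.21), CISH in the untreated knockout (0.31), JAK1 with CHIR-99021 in CEM (-0.14) and SOCS1 in the knockout minus Nalm6 (-1.14), which left 1 called member there. STAT5A in CEM minus Nalm6 under prednisolone was called without replicate 2 of treated Nalm6 (-0.34), and STAT5B with library totals (-0.12). Depth limits SOCS1, with as few as 15 counts in a Nalm6 library, and SOCS3, with at most 2.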
